A study of Homo sapiens with 4 samples.

Results

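The genes described here encode subunits of the clathrin adaptor complex AP-1, with 3 subunits of the related complex AP-2 beside them. They were found by their gene name on an Agilent oligo-microarray. Of 30982 gene names on the array, 10 were members. The 7 members from AP-1 were AP1G1, AP1B1, AP1M1, AP1M2, AP1S1, AP1S2 and AP1S3, and the 3 from AP-2 were AP2B1, AP2M1 and AP2S1. They were measured by 16 probes of the 41000 on the array, each printed as 1 spot. All 16 probes were well above background in both channels on all 4 arrays, so no member was lost to a filter on dim signals. AP1M2 and AP1S1 were chosen by their low values on the FaDu miR-489 array, because both stand in the study's list of candidate miR-489 targets that were low there. Their values on that array are therefore a description with no test. The other 8 members were added as subunits of the same complexes and not chosen on that array. Earlier results of these data were known when the members were picked. AP1G2 of AP-1 and AP2A1 and AP2A2 of AP-2 were on the array but not among the members, and are described with the related genes.

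The 4 arrays covered 2 established squamous cell carcinoma lines, FaDu from the hypopharynx and HSC3 from the tongue. RNA of cells that had received miR-489 or miR-504 was labelled with Cy5 and hybridised together with Cy3-labelled RNA of the same line that had received a control miRNA, 72 h after transfection. Each line thus had 1 array with either miRNA, and the dyes were not swapped. The study asked which transcripts are lower in cells that receive a miRNA, as a route to its targets. Both lines carried markers of squamous epithelium. All 6 markers found on the array (CDH1, KRT5, KRT14, DSG3, PKP1 and TP73L, an older symbol of TP63) were well above background in the control channel of all 4 arrays. The markers of leukocytes (PTPRC), endothelium (PECAM1) and muscle (DES) were not well above background on any array. COL1A1 of fibroblasts was above it on the HSC3 arrays only, with signals of 43.0 and 40.3. GFAP of glia was well above background on all 4 arrays, though dim, with signals of 39 to 71. The squamous marker PKP1 was also dim in FaDu, with signals of 84.5 and 75.5.

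AP-1 recruits clathrin to the trans-Golgi network and to endosomes and sorts membrane proteins between these compartments, whereas AP-2 does so at the plasma membrane during endocytosis. Each complex has a pair of large subunits, a medium (mu) subunit that reads tyrosine-based sorting signals in the tails of cargo proteins, and a small (sigma) subunit that stabilises the core and helps to read dileucine signals. AP-1 has alternative medium subunits. AP1M1 encodes the widely expressed mu1A, and AP1M2 encodes mu1B, which is largely restricted to epithelial cells, where it serves sorting to the basolateral surface. The small subunit of AP-1 also comes in alternative forms, encoded by AP1S1, AP1S2 and AP1S3.

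The mature sequences of the transfected miRNAs are shown because the arrays differ only in cell line and in which of these RNAs the cells received. They were taken from RefSeq (GRCh38.p14), are written 5′ to 3′ and have the seed, bases 2 to 8, in capitals. The labels do not say which arm of either miRNA was used. Both arms of miR-504 are given, and of miR-489 the 3p arm only, which was assumed.
hsa-miR-489-3p: gUGACAUCacauauacggcagc
hsa-miR-504-5p: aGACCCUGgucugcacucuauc
hsa-miR-504-3p: gGGAGUGCagggcaggguuuc
The first lies on the minus strand of chr7:93483947-93483968, and the others lie on the minus strand of chrX:138667760-138667781 and chrX:138667724-138667744. No seed is shared between the 3 sequences. Binding sites in the members were not analysed here.

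Values are log2 ratios of the miRNA transfectant (Cy5) over the control (Cy3), computed from background-subtracted median spot intensities and centred so that the median of probes well above background is 0 on each array. A value of −1 is a 2-fold lower signal. Repeated spots of 1 probe scattered with a standard deviation of 0.0887 to 0.104 on this scale, over the 195 to 209 probes with at least 5 spots, which covers technical error within an array only. Ratios also moved with brightness. The median ratio of the dimmest quartile of spots was −0.28 to −0.41 and that of the brightest quartile 0.11 to 0.18, and the part of this in the members' values was not tested. No array had a saturated spot (0), and the 4 arrays came from 1 slide and 1 scan, so neither could be fitted as a batch.

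AP1M2 and AP1S1 were each at least 3-fold lower in miR-489 transfectants of both lines and close to their control after miR-504. The remaining 5 AP-1 genes and the 3 AP-2 genes stayed within 2-fold of the control on both miR-489 arrays at their brightest probe. On the FaDu miR-489 array 2 of the 10 members were at least 2-fold lower, AP1M2 and AP1S1, where 8.78% of all genes with a control signal above background were that low. This count restates how the pair was chosen and nothing is read from it. On the HSC3 miR-489 array, which took no part in the choice, the same 2 of 10 members were at least 2-fold lower, against 8.15% of all genes. No member (0) was at least 2-fold lower on the FaDu miR-504 array, against 5.98% of genes, or on the HSC3 miR-504 array, against 5.11%. With the pair left out, none of the other 8 members was past 2-fold in either direction on a miR-489 array at its brightest probe. The second probe of AP1S2 was past 2-fold lower on both, at −1.62 in FaDu and −1.03 in HSC3. After miR-504 that probe was low as well, at −1.31 and −0.68.

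AP1M2, the epithelial medium subunit of AP-1, was measured by 1 probe (A_23_P78543, chromosome 19). In FaDu cells its background-subtracted signal was 1719.5 in the control and 484 after miR-489 on the first array, and 1720 in the control and 2321 after miR-504 on the second. In HSC3 cells the signals were 1111 in the control and 336 after miR-489, and 1314.5 in the control and 1494 after miR-504. The raw Cy5 signal was thus well below the Cy3 signal after miR-489 and above it after miR-504, before the removal of a median log2 Cy5 excess of 0.45 to 0.65 per array. After centring, the log2 ratio was −2.41 in FaDu and −2.31 in HSC3 with miR-489, ratios of 0.188 and 0.202. With miR-504 it was −0.22 and −0.26. The 2 miR-489 values lay far below the 2 miR-504 values, and the lines were within 0.1 of each other, about the spread between replicate spots.

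Among all genes with a control signal above background, AP1M2 was 92nd from the lowest of 17704 in FaDu and 94th of 17847 in HSC3 after miR-489. After miR-504 it stood in the middle of the distribution, with 34.9% of genes lower in FaDu and 32.0% lower in HSC3. Over all 8 ways of scaling the intensities, its log2 ratio ranged from −2.62 to −2.14 in FaDu and from −2.48 to −2.02 in HSC3 after miR-489. Its value after miR-504, averaged over the lines, was −0.24 (SE 0.0784) in a limma model that took the 2 lines as replicates, and the adjusted p was 0.0527. That small deficit passed the threshold under 5 of 9 other settings of background, scaling or filter, with an adjusted p between 0.00838 and 0.245, and it stayed below 0 in all of them.

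AP1S1, which encodes the small subunit sigma1A, was measured by 2 probes on chromosome 7, and both showed the same pattern. For the brighter probe (A_23_P157404) the FaDu signals were 1201 in the control and 437 after miR-489, and 1103 in the control and 1505 after miR-504. The HSC3 signals were 959.5 in the control and 432.5 after miR-489, and 860 in the control and 1286 after miR-504. The log2 ratios were −2.04 and −1.73 after miR-489 in FaDu and HSC3, and −0.20 and 0.13 after miR-504. The miR-489 and miR-504 values did not overlap, and the miR-504 value of HSC3 changed sign between scalings, from −0.064 to 0.21.

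The dimmer AP1S1 probe (A_24_P63950) had control signals of 307.5 and 314 in FaDu and of 244 and 259 in HSC3. Its log2 ratio was −2.70 after miR-489 and −0.27 after miR-504 in FaDu, and −2.15 and −0.071 in HSC3. This probe gave the lower ratio on each of the 4 arrays, by 0.66 and 0.41 after miR-489 and by 0.067 and 0.20 after miR-504. Its signals after miR-489, 71 and 82.5, were the dimmest of all member spots, and without background subtraction its ratios were −1.88 in FaDu and −1.44 in HSC3. By the brighter probe, AP1S1 was 181st of 17704 genes from the lowest in FaDu and 262nd of 17847 in HSC3 after miR-489. After miR-504 neither probe passed the test against the control in limma, with means of −0.034 (adjusted p = 0.836) and −0.17 (adjusted p = 0.375).

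**Figure D1:**
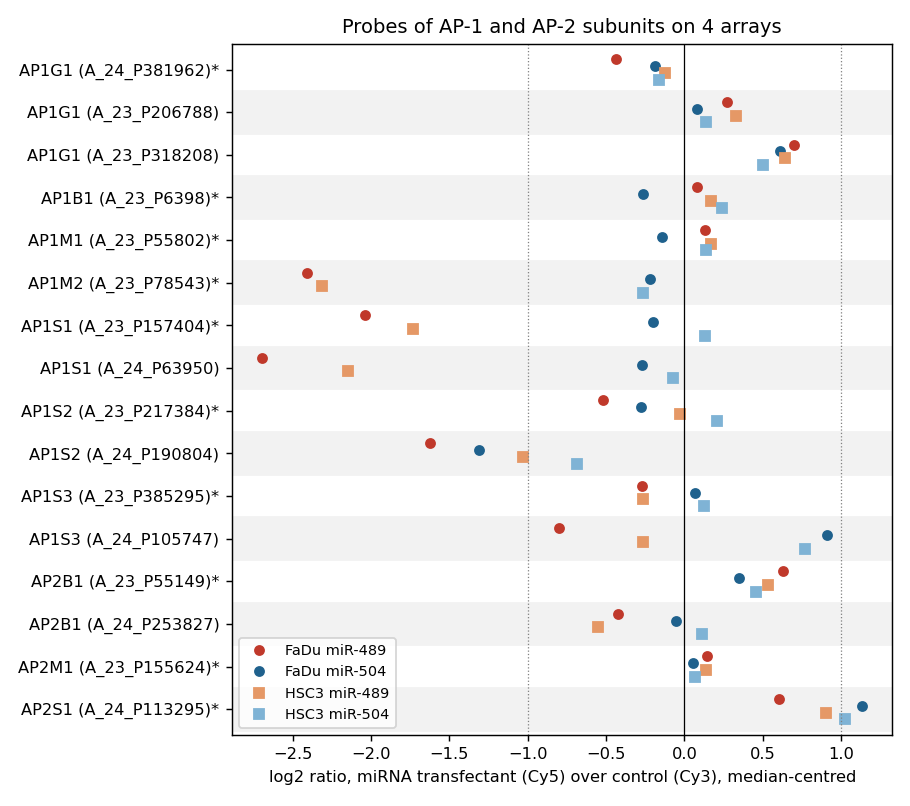
Log2 ratio of the miRNA transfectant over the control, centred on the array median, for each of the 16 probes of the AP-1 and AP-2 subunits, with 1 point per array (circles FaDu, squares HSC3, red and orange miR-489, blue miR-504; an asterisk marks the brightest probe of a gene; dotted lines mark 2-fold). AP1M2 and both probes of AP1S1 lie at −1.73 or lower on the 2 miR-489 arrays and between −0.27 and 0.13 on the miR-504 arrays, and the second probe of AP1S3 also separates the miRNAs.

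AP1M1, the widely expressed alternative to AP1M2 in the same position of the complex, stayed near its control on all 4 arrays. Its control signals were 938 and 879.5 in FaDu and 1096 and 1212 in HSC3. Its log2 ratios were 0.13 in FaDu and 0.17 in HSC3 after miR-489, and −0.15 and 0.13 after miR-504. The values of the miRNAs overlapped within the size of the spread between lines, and the sign of the mean depended on the scaling, from −0.043 to 0.26 after miR-489. In limma the mean after miR-489 was 0.15 (SE 0.0970, adjusted p = 0.239).

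The large subunits gave no common direction. AP1G1 encodes gamma1, the large subunit that binds accessory proteins through its ear domain, and its 3 probes disagreed. The brightest (A_24_P381962) read −0.44 and −0.12 after miR-489 in FaDu and HSC3 and −0.19 and −0.16 after miR-504. The probe A_23_P206788 read 0.27 and 0.33 after miR-489 and 0.077 and 0.14 after miR-504. The third, A_23_P318208, read 0.70 and 0.64 after miR-489 and 0.61 and 0.50 after miR-504, and thus was above its control on all 4 arrays. In limma this probe rose with either miRNA, by 0.67 (SE 0.0793, adjusted p = 0.0023) after miR-489 and by 0.56 (adjusted p = 0.0048) after miR-504, although the latter call was lost without the FaDu miR-504 array (adjusted p = 0.0665). A_23_P206788 rose after miR-489 by 0.30 (adjusted p = 0.0225), a call lost when any 1 array was left out (adjusted p of 0.0538 to 0.110). The brightest probe had an adjusted p of 0.0647 after miR-489, so no direction can be given for AP1G1 as a gene.

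AP1B1 encodes beta1, the large subunit that binds clathrin. Its log2 ratios were 0.083 and 0.17 after miR-489 in FaDu and HSC3, and −0.27 and 0.24 after miR-504. The HSC3 arrays read above their control and the FaDu arrays on either side of it, with no separation by miRNA. The limma mean after miR-489 was 0.13 (SE 0.135, adjusted p = 0.460) and ranged from −0.066 to 0.15 over the other settings.

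AP1S2 encodes sigma1B, an alternative small subunit, on chromosome X. Its brightest probe (A_23_P217384) read −0.52 in FaDu and −0.027 in HSC3 after miR-489, and −0.28 and 0.21 after miR-504. The second probe (A_24_P190804) read −1.62 and −1.03 after miR-489 and −1.31 and −0.68 after miR-504. Both probes were lower in FaDu than in HSC3 with either miRNA, and the second stood about 1 log2 unit below the first. In limma the second probe fell with both miRNAs, with a mean log2 ratio of −1.33 (SE 0.203, adjusted p = 0.0046) after miR-489 and of −0.998 (adjusted p = 0.0131) after miR-504, the latter call being lost without the FaDu miR-504 array (adjusted p = 0.111). The brightest probe passed in neither, with adjusted p of 0.218 and 0.875. The difference between the miRNAs at the second probe, −0.33 (SE 0.287), did not pass (adjusted p = 0.605).

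AP1S3, encoding sigma1C, had lower ratios after miR-489 than after miR-504 in both lines at each of its probes, as did AP1S2, and the gap was largest at its second probe. Its brightest probe (A_23_P385295) read −0.27 in FaDu and −0.26 in HSC3 after miR-489, and 0.067 and 0.12 after miR-504. The second probe (A_24_P105747) had control signals of 155.5 and 173 in FaDu and of 95.5 and 110 in HSC3. Its Cy5 signals were 133.5 and 119.5 after miR-489 in FaDu and HSC3, and 510 and 255 after miR-504. These gave log2 ratios of −0.80 and −0.26 after miR-489 and of 0.91 and 0.77 after miR-504. At this probe the transcript read below the control with one miRNA and above it with the other, in both lines.

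In limma both AP1S3 probes fell after miR-489, by 0.27 (adjusted p = 0.0311) and by 0.53 (adjusted p = 0.0268), and the second rose after miR-504 by 0.84 (SE 0.143, adjusted p = 0.0079). The difference between the miRNAs at the second probe was −1.37 (SE 0.203), with an adjusted p of 0.0607 and, with the cell line as a replicate block, of 0.0336. Over the other settings this adjusted p ranged from 0.0188 to 0.512. The brightest probe differed by −0.36 (SE 0.107, adjusted p = 0.181, and 0.194 with the block). The calls against the control were weak. The call of the brightest probe after miR-489 was lost when any 1 of the 4 arrays was left out (adjusted p of 0.0703 to 0.120). That of the second probe after miR-489 was lost without the FaDu miR-489 array (adjusted p = 0.141), and its call after miR-504 was lost without either miR-504 array (adjusted p of 0.0807 without FaDu and 0.0565 without HSC3).

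Of the AP-2 subunits, AP2S1 was higher than its control on all 4 arrays, AP2B1 depended on the probe and AP2M1 stayed near its control. AP2S1, the small subunit of AP-2, had control signals of 1537 and 1460 in FaDu and of 3460.5 and 3120.5 in HSC3. Its log2 ratios were 0.60 and 0.90 after miR-489 in FaDu and HSC3, and 1.14 and 1.03 after miR-504. All 4 values were above the control, and the miR-504 values were above the miR-489 value of the same line. AP2S1 was the 1 member of 10 at least 2-fold higher on the FaDu miR-504 array, against 2.36% of all genes, and likewise on the HSC3 miR-504 array, against 1.99%. No member (0) was 2-fold higher on the FaDu miR-489 array, against 2.89%, or on the HSC3 miR-489 array, against 2.71%. The HSC3 miR-504 value fell under 2-fold with loess (0.88), with the deposited ratios (0.92) and with total-signal scaling (0.84).

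In limma AP2S1 rose by 0.75 (SE 0.102, adjusted p = 0.0033) after miR-489 and by 1.08 (SE 0.102, adjusted p = 0.0020) after miR-504. Both calls held under the 9 other settings and without any 1 array. The difference between the miRNAs, −0.33 (SE 0.145), did not pass (adjusted p = 0.316).

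AP2B1 encodes the clathrin-binding beta2 subunit, and its 2 probes on chromosome 17 went opposite ways after miR-489. The brightest (A_23_P55149) read 0.63 and 0.53 after miR-489 in FaDu and HSC3 and 0.35 and 0.46 after miR-504. The other (A_24_P253827) read −0.42 and −0.55 after miR-489 and −0.052 and 0.11 after miR-504. In limma the first rose by 0.58 after miR-489 (SE 0.0813, adjusted p = 0.0036) while the second fell by 0.49 (SE 0.0875, adjusted p = 0.0074), the second call being lost without the HSC3 miR-489 array (adjusted p = 0.0516). After miR-504 the first rose by 0.40 (adjusted p = 0.0126), a call lost without the FaDu or the HSC3 miR-504 array (highest adjusted p = 0.131). No direction can be given for AP2B1 as a gene.

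AP2M1, the medium subunit of AP-2 and the counterpart of AP1M1 and AP1M2, was the steadiest of the members. It read 0.14 in both lines after miR-489, and 0.057 and 0.067 after miR-504. The 4 values lay within about the spread of replicate spots, and their sign turned negative with loess and total-signal scaling. The limma means were 0.14 (adjusted p = 0.163) and 0.062 (adjusted p = 0.520).

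Over the 13 probes of the 8 members not chosen on the FaDu miR-489 array, limma called 4 lower and 4 higher after miR-489. Of all 20914 probes tested, 26.5% were called lower and 30.5% higher. After miR-504, over all 16 member probes, 1 was lower and 4 were higher, where 23.4% of all probes were lower and 26.2% higher. The shares of the members were close to or below these backgrounds. A large part of the array passed this test, which had only 2 residual degrees of freedom and the cell lines as replicates. Its calls weigh the mean ratio of the 2 lines at a probe against the scatter between lines, moderated over all probes. That mean includes any dye effect that both lines shared. The labels do not say whether the control RNA of a line was the same extract on both of its arrays.

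The median log2 ratio of the 10 members was −0.095 in FaDu and 0.054 in HSC3 after miR-489, and −0.17 and 0.13 after miR-504. That of all genes was −0.033 and −0.032 after miR-489, and −0.013 and −0.016 after miR-504. The AP-1 genes, with the chosen AP1M2 and AP1S1 among them, had medians of −0.44 and −0.12 after miR-489 and of −0.20 and 0.13 after miR-504. Those after miR-489 are values of the brightest probe of AP1G1, whose probes disagreed, and those after miR-504 are values of AP1S1. The AP-2 genes had medians of 0.60 and 0.53, and of 0.35 and 0.46, of which 3 are values of the brightest probe of AP2B1, whose probes disagreed. With AP1M2 and AP1S1 left out, the median of the other 8 members was 0.11 and 0.15 after miR-489, and −0.044 and 0.17 after miR-504.

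The difference between the miRNAs within a line is free of any effect that the arrays of that line shared, such as a dye effect at a probe. For AP1M2 the log2 ratio after miR-489 minus that after miR-504 was −2.19 in FaDu and −2.05 in HSC3. For AP1S1 it was −1.84 and −1.87, and −2.43 and −2.08 at its second probe. The lines lay within 0.2 of each other for AP1M2 and the brighter AP1S1 probe and further apart at the dimmer AP1S1 probe.

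A difference of −1 or lower, a 2-fold deficit relative to miR-504, was reached by 2.53% of 16847 genes in FaDu and by 1.8% of 16903 genes in HSC3. AP1M2 and AP1S1 were the members past it at their brightest probe, in both lines. AP1M2 was 14th from the lowest in FaDu and 18th in HSC3, and AP1S1 was 40th and 24th, of which the HSC3 ranks took no part in the choice of the pair. Of 15725 genes with a control signal above background on all 4 arrays, 122 (0.776%) reached this deficit in both lines. Counting AP1M2 itself, 4 genes were at least as low as AP1M2 in both lines, and 7 were at least as low as AP1S1. The FaDu ranks and these counts include the array on which the pair was chosen, so nothing is read from them.

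For the other members this difference lay between −0.53 (AP2S1 in FaDu) and 0.35 (AP1B1 in FaDu) at the brightest probe. At the second probe of AP1S3 it was −1.71 in FaDu and −1.03 in HSC3, and past 2-fold in both. At the second probe of AP2B1 it was −0.37 and −0.66. The limma difference was −2.12 (SE 0.111) for AP1M2 and −1.85 (SE 0.176) and −2.25 (SE 0.209) for the AP1S1 probes, given with no p because the FaDu miR-489 array is part of it. Of the 13 probes of the other members, limma called 0 in either direction between the miRNAs, and 3 had an unadjusted p under 0.05, both probes of AP1S3 and the second of AP2B1. Over all probes limma called 0.76% lower and 0.306% higher, and 3869 of the 20914 probes tested had an unadjusted p under 0.05. With the cell line as a replicate block, 1 of the 13 was called, the second probe of AP1S3 given above.

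**Figure D2:**
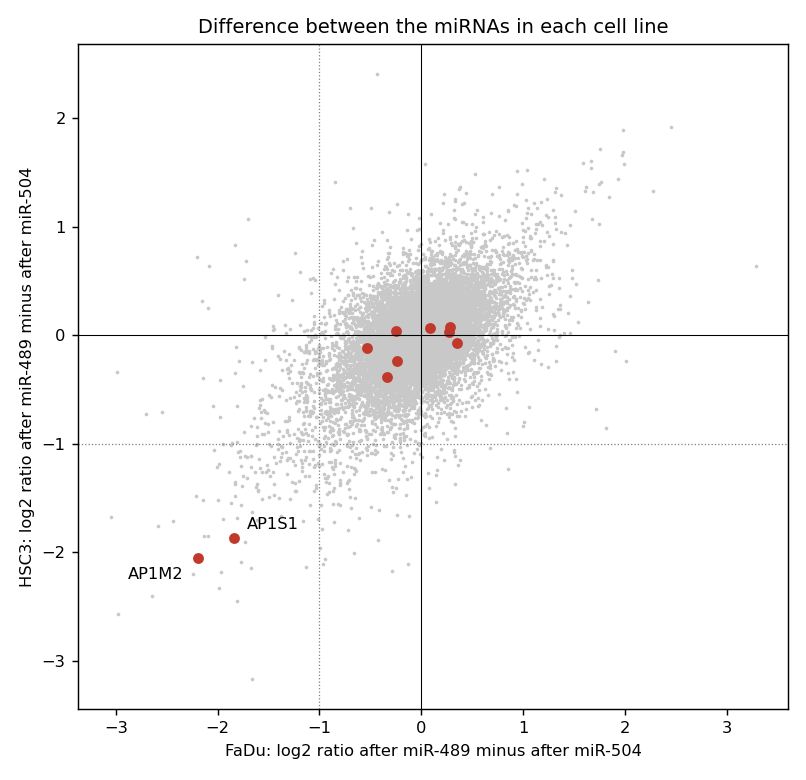
Log2 ratio after miR-489 minus that after miR-504 in FaDu (horizontal axis) and in HSC3 (vertical axis) for the brightest probe of each gene, with all genes in grey and the 10 members in red; dotted lines mark 2-fold lower. AP1M2 (−2.19 in FaDu, −2.05 in HSC3) and AP1S1 (−1.84, −1.87) lie near the lower left end of the distribution, and the other 8 members lie near its centre.

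Levels in the lines themselves were compared on intensities normalised within and between arrays, on a log2 scale, with the control of each line read once on each of its 2 arrays. These readings differed by a median of 0.13 in FaDu and 0.16 in HSC3 over all genes, and by less than 0.45 and 0.58 for 95% of genes. Whether these were separate cultures is not stated, so the lines were not tested against each other. AP1M2 read 11.21 and 11.23 in FaDu controls and 10.52 and 10.54 in HSC3 controls, a level 1.61-fold higher in FaDu. After miR-489 it read 8.82 in FaDu and 8.29 in HSC3, and after miR-504 10.92 and 10.18. The order within each line was control, miR-504 and miR-489 from high to low. The control readings, both in Cy3 and possibly of 1 extract, were 0.023 apart in FaDu and 0.019 apart in HSC3.

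AP1S1 read 10.72 and 10.60 in FaDu controls, 8.72 after miR-489 and 10.31 after miR-504. In HSC3 it read 10.32 and 9.94 in the controls, 8.60 after miR-489 and 9.96 after miR-504, the last lying between the control readings. HSC3 minus FaDu was −0.53 on average in the controls, near the gap of 0.38 between the HSC3 readings. At the dimmer AP1S1 probe it was −0.46, with control readings 0.12 apart in FaDu and 0.080 apart in HSC3.

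The largest differences between the control levels of the lines among the members were in AP1G1, AP1S3 and AP2S1. AP1G1 was 2.28-fold higher in FaDu at its brightest probe and 2.81-fold and 2.27-fold at the others, so that its probes, which disagreed on the miRNAs, were alike in the order of the lines. AP1S3 was 2.02-fold higher in FaDu, and 1.63-fold at its second probe. AP2S1 was 1.94-fold, AP1B1 1.60-fold and AP2B1 1.47-fold higher in HSC3. AP1M1, AP1S2 and AP2M1 differed by 0.15, −0.21 and −0.27 (HSC3 minus FaDu), within the range of the control readings of most genes. Over all genes 8.79% were at least 2-fold higher and 8.87% at least 2-fold lower in HSC3 controls, and the median absolute difference was 0.42.

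**Figure D3:**
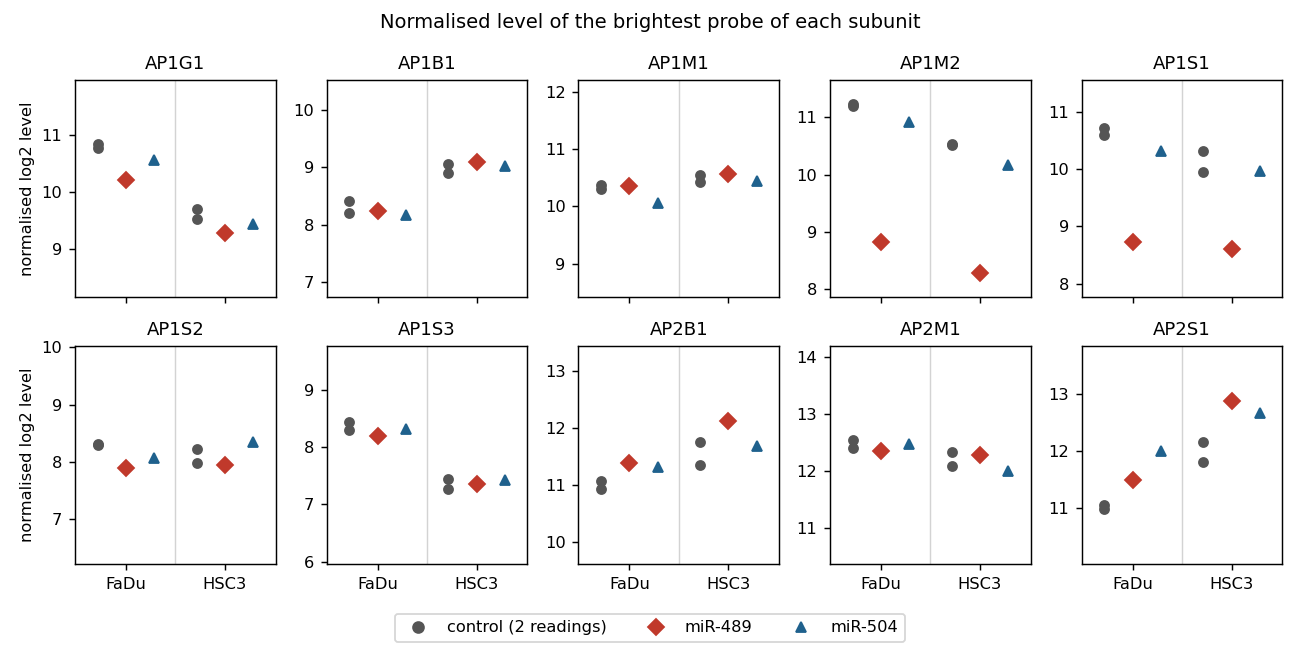
Normalised log2 level of the brightest probe of each of the 10 subunits in FaDu (left of each panel) and HSC3 (right), with both control readings (circles) and the miR-489 (diamond) and miR-504 (triangle) readings; every vertical axis spans the same range, and levels are not comparable between panels. The miR-489 readings of AP1M2 (8.82 and 8.29) and AP1S1 (8.72 and 8.60) stand well below all other readings of their panel.

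The rest of the sorting machinery was described by lists of related genes. Other adaptor subunits, those of AP-3 and AP-4 with the missing ones of AP-1 and AP-2, were found for 14 of 14 symbols, of which 13 had a control signal above background. On the FaDu miR-489 array 1 was at least 2-fold lower (AP4S1, −1.04), against 8.78% of all genes. On the HSC3 miR-489 array it was 1 other (AP3D1, −1.31), against 8.15%. None was that low on the miR-504 arrays, against 5.98% in FaDu and 5.11% in HSC3. Both genes were also below the control after miR-504. AP4S1 read −0.76 in FaDu and −0.60 in HSC3 there, and AP3D1 read −0.72 and −0.78. The medians of the 13 subunits were 0.15 in FaDu and 0.040 in HSC3 after miR-489, and 0.095 and 0.11 after miR-504. AP1G2 of AP-1 read 0.32 in FaDu and −0.040 in HSC3 after miR-489, and 0.29 and 0.35 after miR-504. AP2A1, a large alpha subunit of AP-2, read 0.54 and 0.36 after miR-489 and 0.49 and 0.76 after miR-504. It rose in limma by 0.45 (adjusted p = 0.0164) after miR-489 and by 0.62 (adjusted p = 0.0071) after miR-504. AP2A2, its alternative, read −0.14 and −0.0047 after miR-489 and −0.10 and −0.055 after miR-504, with adjusted p of 0.480 and 0.447. Of the 13 subunits, limma called 2 lower and 4 higher after miR-489, where 26.5% and 30.5% of all probes were called, and 4 lower and 3 higher after miR-504, where 23.4% and 26.2% were. These counts lie near the shares over all probes.

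Clathrin chains and coat accessory proteins were found for 21 of 22 symbols. Where the signal was well above background, none was past 2-fold on any of the 4 arrays. Of all genes, 5.11% to 8.78% per array were at least 2-fold lower and 1.99% to 2.89% at least 2-fold higher. The medians of this list were 0.12 in FaDu and 0.20 in HSC3 after miR-489 and 0.16 in both after miR-504. Of the 19 tested, limma called 2 lower and 7 higher after miR-489 (26.5% and 30.5% of all probes), and 5 lower and 7 higher after miR-504 (23.4% and 26.2%). Proteins that travel between the trans-Golgi network, endosomes and the cell surface were found for 9 of 9 symbols, with medians of −0.13 in FaDu and −0.29 in HSC3 after miR-489 and of −0.29 and −0.11 after miR-504. On the FaDu miR-489 array 1 of the 9 was at least 2-fold lower and 1 higher, against 8.78% and 2.89% of all genes. On the HSC3 miR-489 array 2 were lower and 0 higher, against 8.15% and 2.71%. None was past 2-fold on the miR-504 arrays. Genes past 2-fold the same way on both arrays of a miRNA were not counted over the whole array. Of the lists, VAMP4, a SNARE protein of the trans-Golgi network, was the 1 such gene. Its log2 ratio was −1.14 in FaDu and −1.15 in HSC3 after miR-489, and −0.31 and −0.52 after miR-504. The limma difference of VAMP4 between the miRNAs was −0.73 (SE 0.123), with an adjusted p of 0.0761. Limma called 4 of the 9 lower and 1 higher after miR-489, beside 26.5% and 30.5% of all probes, and 2 lower and 1 higher after miR-504, beside 23.4% and 26.2%. Between the miRNAs limma called 0 genes of these 3 lists. Unadjusted p was under 0.05 for 3 of 13 adaptor subunits, 2 of 19 clathrin and accessory genes and 2 of 9 cargo genes. Over the whole array it was so for 3869 of 20914 probes.

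**Figure D4:**
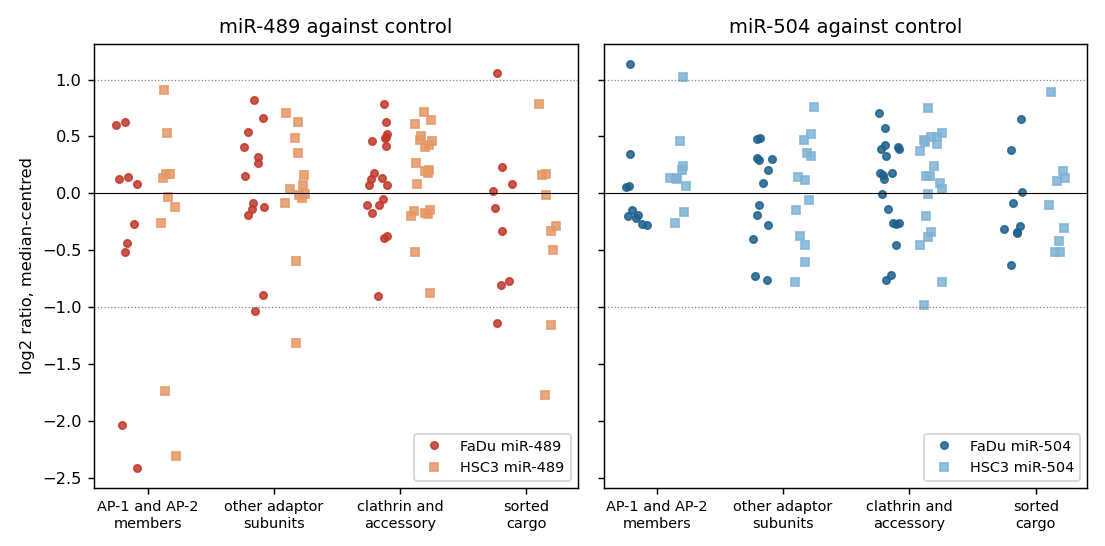
Log2 ratio (centred on the array median) of the 10 AP-1 and AP-2 members and of the other adaptor subunits, clathrin and accessory genes and sorted cargo whose control signal was above background, after miR-489 (left) and miR-504 (right), with circles for FaDu and squares for HSC3; points are spread sideways for legibility and dotted lines mark 2-fold. After miR-489 the members AP1M2 (−2.41 and −2.31) and AP1S1 (−2.04 and −1.73) lie below nearly all genes of the lists, and after miR-504 no point of any list lies past 2-fold lower.

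The genes whose 4 ratios were most like those of AP1M2, by root mean square distance over the 4 arrays among 15725 genes, were AHNAK (0.143), SUZ12 (0.197), BI050742 (0.221), ENST00000380064 (0.237) and CRIPT (0.242), where BI050742 and ENST00000380064 are names of the array design. AHNAK read −2.31 and −2.25 after miR-489 in FaDu and HSC3, and −0.071 and −0.047 after miR-504. For AP1S1 they were OSTM1 (0.191), CDIPT (0.206), the unnamed probe A_23_P45902 (0.245), ENST00000380064 (0.250) and ATP1B3 (0.277). AP1M2 and AP1S1 were at a distance of 0.395 from each other. These distances describe 4 arrays and carry no test. AHNAK, SUZ12, CRIPT, OSTM1, CDIPT and ATP1B3 stand, like the pair, in the study's list of genes low on the FaDu miR-489 array. That array enters the distance, so nothing is read from the likeness.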

How the data were processed

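The authors deposited the scanner output of Feature Extraction 9.5.3.1 with median and mean spot and background intensity per channel. The deposited output also holds 0 or 1 marks for signal well above background, saturation and outliers, used here as filters, and a log10 ratio per spot after LOWESS dye normalisation. A deposited series table equals these log10 ratios (largest difference 0). The paper's methods name another scanner and software, log2 ratios of background-subtracted medians and a global normalisation. The log2 ratios computed here from the deposited intensities follow that outline, with signals floored at 1. The study's listed values are instead those of the deposited ratios on a log2 scale, −2.54 for AP1M2 and −2.62 for the dimmer AP1S1 probe in FaDu after miR-489. Outlier spots (118 to 137 per array) were left out. The medians removed were 0.45 to 0.65. Cy3 was well above background for 58.2% to 59.2% of spots and Cy5 for 61.2% to 62.6%. Precision is limited by the number of arrays.

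Of several probes of a gene, the one with the highest mean log2 Cy3 signal stood for it. A gene counted as lower only where Cy3, and as higher only where Cy5, was well above background. With the lines as replicates, limma was fitted to 20914 probes with Cy3 well above background on all arrays (2 residual degrees of freedom, prior 3.20 degrees of freedom, prior SD 0.135), with Benjamini-Hochberg adjustment over these probes at 0.05, and was tested on simulated data. The cell line in the labels pairs the arrays for the comparison of the miRNAs. Deviations of the 2 arrays of a line from their miRNA means correlated across probes with r = 0.136. Levels used normexp (offset 50), loess (span 0.3) and Aquantile normalisation.

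The members and gene lists were chosen with earlier results of these data known. All members were named with every probe, plus AP2A1, AP2A2, genes of the lists past 2-fold the same way on both arrays of a miRNA, and the 5 genes nearest in pattern to AP1M2 and to AP1S1. AP1G2, AP3D1 and AP4S1 were named after their values were seen. Alternatives covered background correction, mean spot intensity, loess, total signal, the deposited ratios, probe choice, filters, thresholds, a cell-line block and the omission of each array in turn. Fits were run with limma 3.58.1 in R 4.3.3, which read the files through data.table (version 1.17.8). Figures were drawn with matplotlib 3.10.9 and pandas 2.3.3 in Python 3.11.15.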

Additional observations from a re-analysis of the deposited data

Results flagged for a closer look

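Under miR-504, 5 probes of the members read below the control in FaDu and above it in HSC3. Each is 1 array per line, and the difference between the lines was not tested. The HSC3 minus FaDu difference in log2 ratio was 0.504 for AP1B1 (−0.27 and 0.24), 0.483 for the brightest probe of AP1S2 (−0.28 and 0.21) and 0.337 for the brighter probe of AP1S1 (−0.20 and 0.13). It was 0.280 for AP1M1 (−0.15 and 0.13) and 0.164 for the second probe of AP2B1 (−0.052 and 0.11). With the deposited log ratios both lines had the same sign at the AP1S1 probe, and with loess at the AP2B1 probe.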

How the results depend on the processing

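No limma call of a member probe changed direction under another background, scaling, filter or omitted array. The choice of probe turned several members. With the lowest probe AP2B1 went from 0.63 to −0.42 in FaDu and from 0.53 to −0.55 in HSC3 after miR-489. It also went from 0.35 to −0.052 in FaDu after miR-504. In HSC3 after miR-504, AP1S2 went from 0.21 to −0.68 and AP1S1 from 0.13 to −0.071. With the mean of all probes AP1G1 went from −0.44 to 0.18 in FaDu and from −0.12 to 0.28 in HSC3 after miR-489. After miR-504 it went from −0.19 to 0.17 and from −0.16 to 0.16. Members at least 2-fold lower on the miR-489 arrays numbered 2, but 3 in FaDu with the mean of all probes or the lowest probe and 3 in HSC3 with the lowest probe (AP1S2 in addition), and 1 in HSC3 at a 4-fold threshold. On the FaDu miR-504 array 1 member was lower when the lowest probe of a gene was used (AP1S2). Members at least 2-fold higher numbered 2 in FaDu and 1 in HSC3 after miR-489 at a 1.5-fold threshold, and 1 in HSC3 after miR-489 without background subtraction. After miR-504 none (0) remained higher at 4-fold or with total signal in FaDu, and none (0) in HSC3 with loess, normexp and loess, total signal, the deposited log ratio or the 4-fold threshold. Probes called by limma for miR-504 against control numbered 10379, 5512 without a filter on dim probes, and 3469 to 10917 with 1 array left out, lowest without the FaDu miR-504 array and 4169 without the HSC3 miR-504 array. For miR-489 against miR-504 limma called 223 probes, 663 with normexp, 498 without background subtraction, 351 with loess, 791 with normexp and loess, 390 with the deposited log ratio and 558 with the cell line as a replicate block. It called 0 without a filter on dim probes (3236 at an unadjusted p under 0.05) and 0 to 0 with any 1 array left out (2064 to 3704 at an unadjusted p under 0.05). The cause was not tested. Total-signal scaling moved the median of all genes to between −0.24 and −0.18, and the share of lower among called probes from 46.5% to 67.5% after miR-489 and from 47.1% to 70.5% after miR-504. Without the filter on dim probes these shares were 74.2% and 79.1%. For miR-489 against miR-504 that share was 71.3%, 57.2% with normexp, 60.8% without background subtraction and 61.7% with normexp and loess. The replicate block changed the call of 1 member probe, the second of AP1S3. The deposited series table gave the same values as the deposited log ratio. Dim signals limit the second probe of AP1S1 most, and background treatment moved it further than any other member.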
